A study of Mus musculus with 12 samples.

Results

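The genes described here are the chaperones of the endoplasmic reticulum (ER), the sensors and transcription factors of the unfolded protein response (UPR), the ER-associated degradation (ERAD) machinery and the heat shock genes of the cytosol, measured in the hypothalamus of Gpr75-/- and WT mice. They were chosen by symbol from a list of 37 genes, of which 36 were present in the results for both diets, among 16855 genes in the chow results and 16744 in those of the HFD. The expression of the remaining gene, Trib3, was not analysed here. Of the 36, 28 act in or signal from the ER (14 chaperones and folding enzymes, 6 UPR signalling genes and 8 ERAD genes) and 8 belong to the cytosolic heat shock system.

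Both genotypes were fed either chow or a high-fat diet (HFD), the latter for 2 weeks from 6 weeks of age, and 3 male C57BL/6J mice of each combination gave hypothalamus RNA at 8 weeks of age, 12 in all. WT mice were littermates and carried no allele or agent beyond the diet. The Gpr75-/- allele was made by CRISPR/Cas9 and ends translation early in the coding sequence in every cell of the body, so the level of Gpr75 mRNA does not check the genotype. Mice of each group were labelled as separate samples, and the p-values measure the spread between them. GPR75 is a G protein-coupled receptor, and the study asked how its loss alters hypothalamic gene expression on each diet.

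Proteins that enter the ER are folded by BiP (Hspa5), GRP94 (Hsp90b1), the lectins calreticulin and calnexin, and disulfide isomerases. When unfolded proteins build up, IRE1 (Ern1), PERK (Eif2ak3) and ATF6 raise the transcription of these chaperones and of ERAD genes through XBP1, ATF4 and cleaved ATF6. Misfolded proteins in the cytosol instead activate HSF1, which induces HSP70 and its partners. In the hypothalamus, ER stress under high-fat feeding is known as a modifier of leptin signalling.

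The values were the authors' results per gene and diet, with no value of a single mouse: a mean normalized count over 6 mice, and the log2 ratio of Gpr75-/- to WT mice (log2 fold change) with its standard error (SE). An average mouse had 18280462 normalized counts on chow and 19420111 on the HFD. A Wald p-value was recomputed from each fold change and SE and adjusted by the Benjamini-Hochberg method over all genes tested (16191 for chow, 16089 for the HFD), and a gene was said to rise or fall only with an adjusted p under 0.05. The Wald statistic z is the fold change over its SE, and a z beyond 1.96 in either direction is an unadjusted p under 0.05. All 36 members were tested on both diets, with mean normalized counts from 144 (Hspa1a) to 35528 (Hspa8) on chow, far above the lowest mean tested (25.1). The median SE of the members was 0.09 on the log2 scale on chow and 0.07 on the HFD, against 0.12 and 0.11 over all genes. Counting error made up little of it: the median member's SE was 2.87 times its counting error on chow and 2.30 times on the HFD, and for Hspa8 10.3 and 6.61 times. Of 18 neuropeptide genes that mark the hypothalamus, 17 were present on both diets, with Pmch at the highest mean.

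Per kilobase of exon, the cytosolic chaperone Hspa8 (HSC70) stood highest at a mean of 8260 normalized counts on chow, followed by Hsp90aa1 (5646). In the ER, calnexin (Canx, 3414), Calr (3032), Hspa5 (2881), Hsp90b1 (2572) and the isomerase Pdia3 (2438) were the most abundant by this measure. Pdia6 (909), Xbp1 (843) and Pdia4 (704) lay below them. The sensors were near the bottom of the order, with 77.0 for Atf6, 65.6 for Eif2ak3 and 34.2 for Ern1, the lowest. Edem1 (64.7) and the stress-inducible HSP70 genes Hspa1a (48.6) and Hspa1b (62.3) lay in the same low range, and HSP70 is known as a protein strongly induced by heat. These are means over both genotypes with no error between mice, and their neighbours in this order cannot be separated.

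The promoters of many of the ER chaperones hold an element that was described from UPR target genes, so the choice of members by their role in the UPR is not independent of it. The ER stress response element (ERSE) consists of CCAAT and CCACG with 9 bases between them, and is bound by NF-Y and ATF6. In RefSeq windows of the GRCm38.p6 build, from 250 bases before to 50 bases after each start and on both strands, the ERSE letters were found in 37 of 27025 genes (0.137%). Windows existed for 30 of the 37 listed members. Of the 12 ER chaperones with a window, 7 held the letters (58.3%), and Pdia3, Pdia4, Dnajb9, Dnajb11 and Sdf2l1 did not. The letters were also in 1 of 7 ERAD genes, the ubiquitin ligase Syvn1, and in 0 of 6 UPR signalling genes and 0 of 5 cytosolic genes. The stretches below show these 8 promoters and that of Herpud1, 5′ to 3′ on the strand of the gene, with the paired half-sites in capitals. Where CGTGG precedes ATTGG the element lies on the opposite strand.

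Hspa5, chr2:34772015-34772053, + strand: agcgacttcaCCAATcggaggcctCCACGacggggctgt

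Calr, chr8:84847065-84847103, - strand: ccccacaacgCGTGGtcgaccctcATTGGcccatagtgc

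Canx, chr11:50325790-50325828, - strand: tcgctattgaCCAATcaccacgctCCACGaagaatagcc

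Pdia6, chr12:17266481-17266519, + strand: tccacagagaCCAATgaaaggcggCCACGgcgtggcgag

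Dnajc3, chr14:118937817-118937855, + strand: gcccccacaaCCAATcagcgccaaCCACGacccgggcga

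Creld2, chr15:88819510-88819548, + strand: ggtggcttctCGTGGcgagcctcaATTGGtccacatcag

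Syvn1, chr19:6046522-6046560, + strand: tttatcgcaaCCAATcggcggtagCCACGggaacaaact

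Hsp90b1, with 2 elements, chr10:86705523-86705666, - strand: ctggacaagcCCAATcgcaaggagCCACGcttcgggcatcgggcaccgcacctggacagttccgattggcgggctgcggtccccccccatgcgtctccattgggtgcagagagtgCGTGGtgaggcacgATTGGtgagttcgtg

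Herpud1, with the related element ERSE-II (ATTGG, 1 base, CCACG), chr8:94386367-94386397, + strand: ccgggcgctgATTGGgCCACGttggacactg

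The element of Hspa5 began 65 bases before the start, and the stretch of Pdia6 ran from 108 to 70 bases before it. ERSE-II was found in Herpud1 and Dnajb11 among the members, and in 0.0444% of all genes. CCAAT, which ERSE and ERSE-II contain, was present in 25 of 30 members (83.3%) and in 41.1% of all genes. TGACGTGG, a site of cleaved ATF6 and XBP1, was in 0 members and in 0.714% of all genes. TGATGNAA, the kind of site that ATF4 and CHOP share, was in Trib3 and Herpud1 and in 4.51% of all genes. The heat shock letters GAANNTTCNNGAA, and their complement on the other strand, were in Hsph1 alone among the members and in 0.662% of all genes. A match is a description of letters and not of binding, and promoters beyond these windows were not searched.

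On chow, no member passed the adjusted test, and each of the 14 ER chaperones had a log2 fold change above 0, from 0.03 (Hsp90b1) to 0.24 (Pdia4), with a median of 0.14 against -0.0029 over all genes, of which 48.9% were above 0. Over all 36 members, 28 were above 0, and 0 passed an adjusted p of 0.05, as did 0.0618% of all genes. At an unadjusted p under 0.05, 7 of 36 members were higher, among them 5 of the 14 chaperones, against 2.13% of all genes. In the other direction 1 member was lower, against 2.55% of all genes. All these values came from the same 6 mice, so the members are not independent. Their shared direction does not replicate a genotype effect. Choroid plexus, red blood cell and glucocorticoid-responsive genes also lay above 0 on chow, with larger medians given further on, and their part in the chaperone values was not tested. In whole hypothalamus, the number of cells of a type and the RNA in each cell cannot be told apart in these values.

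Pdia6, a disulfide isomerase, had the smallest p of the members on chow. Its fitted normalized count was 3152 in WT and 3660 in Gpr75-/- mice, 1.16-fold (95% interval 1.05 to 1.28), with z = 3.01 and an adjusted p of 0.561 from the Wald test. Hspa5, the main Hsp70 of the ER lumen and the usual readout of the UPR, stood at 11309 in WT and 13057 in Gpr75-/- mice, 1.15-fold (1.03 to 1.30), with z = 2.46 and adjusted p = 0.884. Pdia4, another isomerase, gave 1549 and 1827, 1.18-fold (1.03 to 1.35), with z = 2.44 and adjusted p = 0.884.

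In the lectin cycle, which holds glycoproteins until they fold, the intervals of some genes excluded 1 and those of others did not. Canx, its membrane lectin, stood at 15225 and 16819 normalized counts, 1.10-fold (1.02 to 1.20), z = 2.43. Pdia3, the isomerase that works with it, stood at 7276 and 8032, 1.10-fold (1.01 to 1.21), z = 2.17. Calr, the soluble lectin, was at 1.03-fold (0.948 to 1.13), and the Hsp90 of the ER, Hsp90b1, at 1.02-fold (0.941 to 1.10).

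Sdf2l1, Creld2 and Manf, small ER proteins known for strong induction by the UPR, gave 1.15-, 1.17- and 1.13-fold on chow, with SEs of 0.14, 0.13 and 0.11 on the log2 scale and intervals that include 1. The J-domain co-chaperones of BiP lay closer to WT, at 1.07-fold for Dnajb9, 1.06-fold for Dnajb11 and 1.07-fold for Dnajc3. Hyou1, its nucleotide exchange factor, was at 1.04-fold. For 8 of the 14 chaperones the 95% interval on chow lay within 0.8- to 1.25-fold, and the highest end of any interval was 1.39-fold.

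The 8 ER members with ERSE letters were all above 0 on chow, from 0.03 to 0.22 on the log2 scale with a median of 0.12. Since 7 of these 8 are chaperones, they were set beside the chaperones alone: the 7 chaperones with the letters had a median of 0.14 on chow, and the 5 with a window and no such letters had a median of 0.14, all above 0. Among genes that are no members, 12 with the letters were tested, and their median was -0.04 with 5 above 0.

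**Figure D1:**
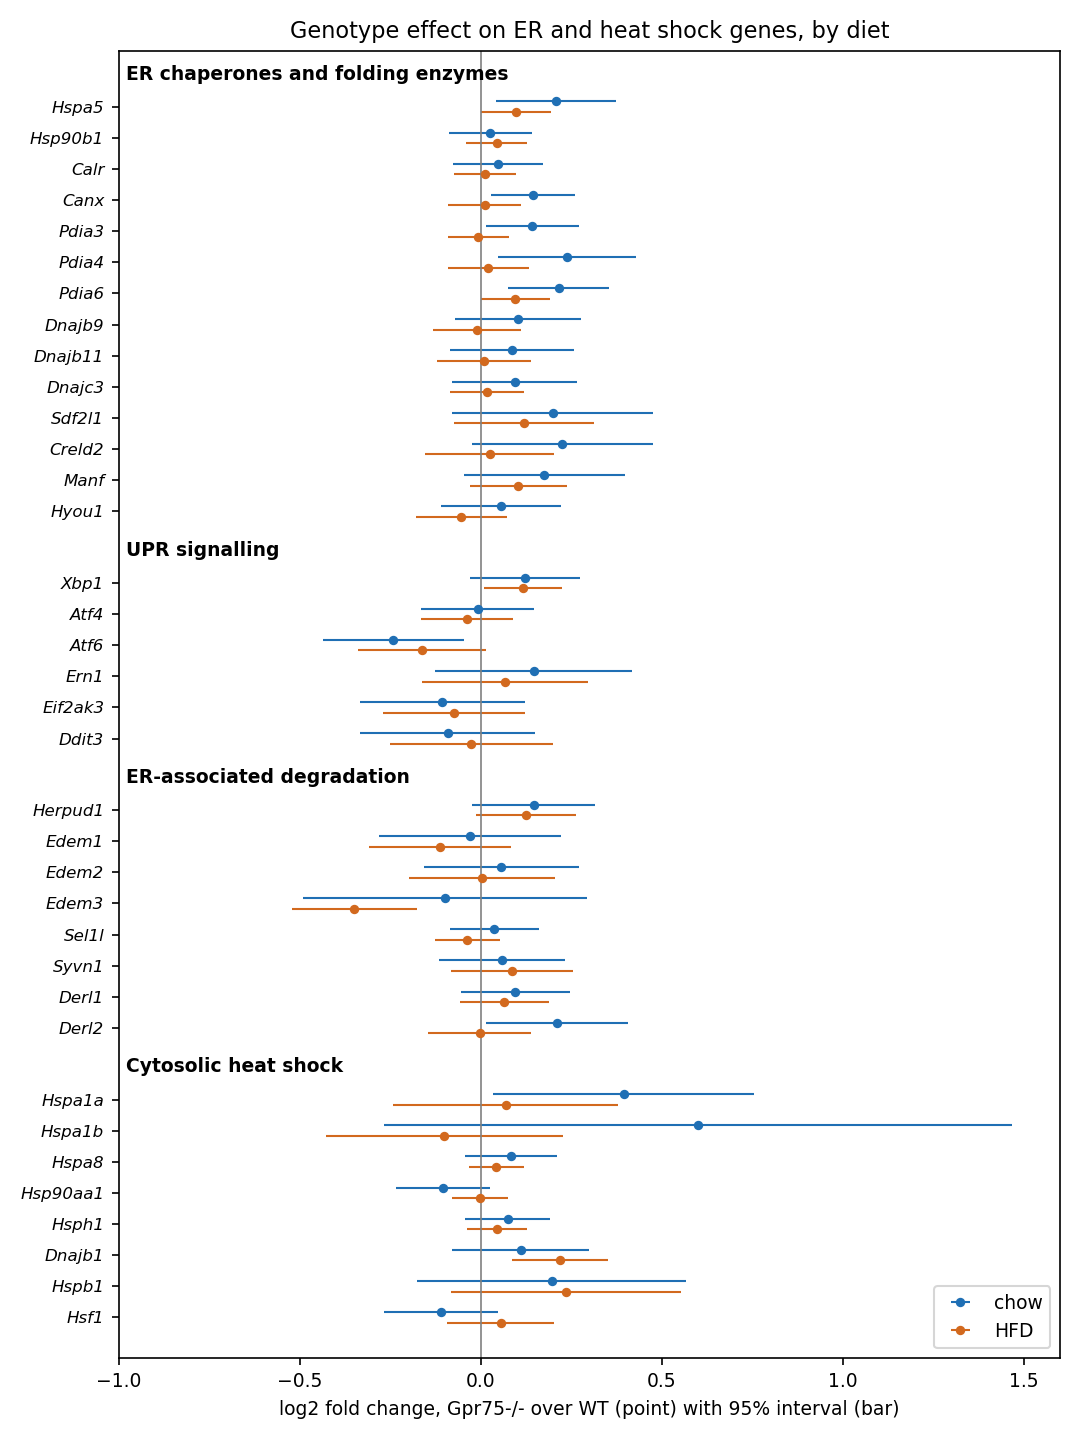
Log2 fold change of Gpr75-/- over WT for each of the 36 members on chow (blue) and on the HFD (orange), with 95% intervals as bars and genes ordered by class. On chow all 14 ER chaperones lie to the right of 0, while on the HFD most lie near 0 and the interval of Edem3 lies wholly to the left.

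The signalling genes did not share this direction on chow. Only Xbp1 and Ern1 of 6 were above 0, with a median of -0.05. Xbp1, the transcription factor downstream of IRE1, had fitted counts of 2623 in WT and 2854 in Gpr75-/- mice, 1.09-fold (0.979 to 1.21), and Ern1, which encodes IRE1, was at 1.11-fold (0.917 to 1.34). Splicing of Xbp1, which is how IRE1 acts on it, cannot be read from a count per gene. Atf6 stood at 771 in WT and 652 in Gpr75-/- mice, 0.846-fold (0.739 to 0.968), z = -2.43 and adjusted p = 0.884, and was the only member lower at an unadjusted p under 0.05. The mRNAs of the PERK branch were at 0.929-fold for Eif2ak3 (0.793 to 1.09) and 0.994-fold for Atf4 (0.893 to 1.11), with intervals that include 1. Ddit3, the proapoptotic factor CHOP, was at 0.938-fold (0.794 to 1.11). Its identifier in the results belongs, in the GRCm38 annotation, to a short locus of the same name that overlaps the gene, so which reads its count holds is uncertain.

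Of the 8 ERAD genes, 6 were above 0 on chow, with a median of 0.06. Derl2, a channel subunit, stood at 740 and 855 normalized counts, 1.16-fold (1.01 to 1.32), z = 2.10 and adjusted p = 1.0. Herpud1, which recruits the ligase complex, was at 1.11-fold (0.984 to 1.24). Derl1 was at 1.07-fold, Syvn1 at 1.04-fold, its partner Sel1l at 1.03-fold, and the mannosidase-like lectins Edem2 and Edem1 at 1.04- and 0.979-fold. Edem3 was at 0.934-fold (0.712 to 1.22) with an SE of 0.20, which was 6.13 times its counting error.

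In the cytosol, 6 of 8 genes were above 0 on chow, with a median of 0.10. Hspa1a, an inducible HSP70 gene, stood at 124 normalized counts in WT and 164 in Gpr75-/- mice, 1.32-fold (1.02 to 1.69), z = 2.15 and adjusted p = 1.0. Hspa1b had the largest fold of the members, 139 and 211 or 1.52-fold, but its interval ran from 0.831 to 2.77. The coding sequences of Hspa1a and Hspa1b are near-identical, so reads could be split or lost between them and the value of each is uncertain. The intervals of the remaining genes included 1, with Hspa8 at 1.06-fold (0.970 to 1.16), the HSP110 gene Hsph1 at 1.05-fold, the HSP40 gene Dnajb1 at 1.08-fold, Hsp90aa1 at 0.930-fold and Hspb1 at 1.15-fold with a wide interval (SE 0.19 on the log2 scale). Hsf1, the regulator of this system, stood at 1090 and 1010, 0.927-fold (0.831 to 1.03).

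On the HFD, 1 member changed. Edem3, whose product trims mannose from misfolded glycoproteins to mark them for ERAD, fell by 0.35 on the log2 scale (SE 0.09). Its fitted normalized count was 1444 in WT and 1133 in Gpr75-/- mice, 0.785-fold (0.697 to 0.884), with z = -3.98 and an adjusted p of 0.0408 from the Wald test with Benjamini-Hochberg adjustment. Edem3 lies at chr1:151631122-151697802 in the GRCm39 coordinates of the results. That is 1 of 36 members, against 0.199% of all genes. With a Bonferroni adjustment it did not pass (adjusted p = 1.0). Its paralogs Edem1 and Edem2 were at 0.925-fold (0.807 to 1.06) and 1.0-fold (0.871 to 1.15).

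At an unadjusted p under 0.05 on the HFD, 3 members were higher, against 1.37% of all genes, and only Edem3 was lower, against 3.13% of all genes. Dnajb1, a cytosolic co-chaperone of HSP70 and a target of HSF1, stood at 1716 in WT and 1998 in Gpr75-/- mice, 1.16-fold (1.06 to 1.28), z = 3.26 and adjusted p = 0.242. Xbp1 stood at 3311 and 3590, 1.08-fold (1.01 to 1.17), z = 2.13 and adjusted p = 0.964. Pdia6 stood at 4050 and 4327, 1.07-fold (1.0 to 1.14), z = 1.96. Hspa5 was next to this threshold, at 15352 and 16422, 1.07-fold (1.0 to 1.14), z = 1.95. Apart from Edem3, Dnajb1 and Xbp1, the members had an adjusted p of 1.0 on the HFD.

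The ER chaperones on the HFD had a median log2 fold change of 0.02, against 0.0045 over all genes, with 11 of 14 above 0 where 52.0% of all genes were. Each of the 14 had a 95% interval within 0.8- to 1.25-fold, from a lowest end of 0.883 to a highest of 1.24. Canx was at 1.01-fold (0.940 to 1.08), Pdia3 at 0.995-fold (0.939 to 1.06) and Pdia4 at 1.01-fold (0.939 to 1.10). Hsp90b1 was at 1.03-fold, Calr, Dnajb11 and Dnajc3 at 1.01-fold, Dnajb9 at 0.993-fold and Hyou1 at 0.964-fold. Sdf2l1 (1.09-fold), Manf (1.07-fold) and Creld2 (1.02-fold) had intervals that include 1. The 8 members with ERSE letters were again all above 0, at 0.01 to 0.10 on the log2 scale. Among chaperones alone, 7 of 7 with the letters (median 0.03) and 3 of 5 without them (median 0.01) were above 0, and of the 12 genes with the letters that are no members 6 were.

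Of the UPR signalling genes on the HFD, Atf6 stood at 716 normalized counts in WT and 640 in Gpr75-/- mice, 0.894-fold (0.791 to 1.01), z = -1.79. Atf4 was at 0.974-fold (0.892 to 1.06), Eif2ak3 at 0.950-fold (0.829 to 1.09), Ddit3 at 0.982-fold (0.840 to 1.15) and Ern1 at 1.05-fold (0.894 to 1.23). Among ERAD genes, Herpud1 was at 1.09-fold (0.991 to 1.20), Syvn1 at 1.06-fold, Derl1 at 1.05-fold, Derl2 at 0.998-fold and Sel1l at 0.974-fold. In the cytosol, Hspa1a was at 1.05-fold (0.845 to 1.30), Hspa1b at 0.933-fold (0.743 to 1.17), Hspa8 at 1.03-fold (0.978 to 1.09), Hsp90aa1 at 1.0-fold, Hsph1 at 1.03-fold, Hspb1 at 1.18-fold (0.945 to 1.47) and Hsf1 at 1.04-fold (0.937 to 1.15).

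**Figure D2:**
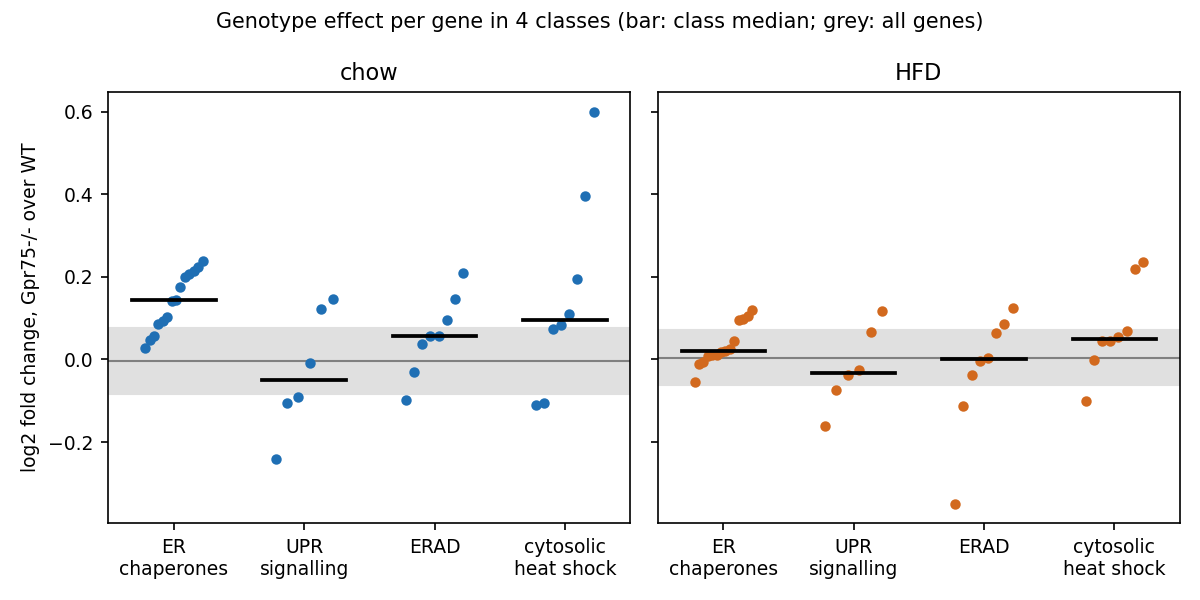
Log2 fold change of Gpr75-/- over WT for each member (points, sorted within a class) on chow (left) and on the HFD (right). Black bars are class medians, and the grey band and line are the quartiles and median of all genes tested. The chow median of the ER chaperones (0.14) lies above the upper quartile of all genes (0.08), and their HFD median (0.02) lies within the band.

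The genotype effect on the HFD minus that on chow was tested for each gene, with separate WT and Gpr75-/- mice on each diet. Of the 36 members 0 passed the adjusted test, as did 0% of 15893 genes. At an unadjusted p under 0.05 there were 0 members in either direction, where 1.23% of all genes were higher and 1.67% lower. The difference lay below 0 for 27 of 36 members, and for 13 of the 14 chaperones, whose median was -0.11 on the log2 scale against 0.01 over all genes. Over all genes, 51.4% of the differences lay above 0. The difference subtracts the chow effects, so its sign is not independent of them. Pdia4 had the statistic farthest from 0, with a difference of -0.22 (95% interval -0.44 to 0.00, z = -1.92), followed by Pdia3 at -0.15 (-0.30 to 0.00, z = -1.90), Derl2 at -0.21 (-0.46 to 0.03, z = -1.72) and Canx at -0.13 (-0.29 to 0.02, z = -1.69). For Hspa5 it was -0.11 (-0.30 to 0.08). For Edem3 it was -0.25 (-0.68 to 0.18, z = -1.15), so its effect on the HFD was not shown to differ from that on chow. The chow and HFD effects of the chaperones likewise were not shown to differ for any single gene.

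ER and cytosolic genes were set side by side on each diet. On chow, the median log2 fold change was 0.09 over the 28 ER members and 0.10 over the 8 cytosolic members. On the HFD it was 0.01 and 0.05, and with log2 ratios of the group values on the CPM scale, described below, 0.02 for both classes. Above 0 on chow were 22 of 28 ER members and 6 of 8 cytosolic members, and on the HFD 17 of 28 and 6 of 8. The median difference between the diets was -0.08 for the ER members and 0.01 for the cytosolic members. The classes overlapped widely on both diets, and the ER median hid its parts, since on chow the chaperones stood at 0.14 and the signalling genes at -0.05. With 8 genes in the cytosolic class, and with Hspa1a and Hspa1b sharing sequence, no test was made between the classes.

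The level of each group was also read on the CPM scale, which divides counts by the library total, recovered from the authors' group values and known only within their rounding, with no error between mice. The WT mice on chow enter both this comparison and the genotype effect on chow, and the results of each diet were normalized separately, so no test was made. Hspa5 stood at 616 CPM in WT and 716 CPM in Gpr75-/- mice on chow, and at 792 and 834 CPM on the HFD. Pdia4 stood at 85.2, 98.4, 110 and 114 CPM in the same order. The lowest level of both genes was that of WT mice on chow.

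The same order held for Sdf2l1, at 17.6 CPM in WT and 20.4 CPM in Gpr75-/- mice on chow, and 23.9 and 26.6 CPM on the HFD. Hspa1b stood at 7.02 and 11.3 CPM on chow and at 13.8 and 13.2 CPM on the HFD. Edem3 stood at 74.0 CPM in WT mice on both diets, at 66.8 CPM in Gpr75-/- mice on chow and at 58.4 CPM in Gpr75-/- mice on the HFD. The lowest level of Edem3 was that of Gpr75-/- mice on the HFD, though the genotype effect on Edem3 was not shown to differ between the diets.

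Between WT mice, the HFD level of 12 of the 14 chaperones exceeded the chow level by more than rounding, with a median log2 ratio of 0.24, where 35.5% of 12331 genes with a mean of at least 100 did. Between Gpr75-/- mice, it did for 10 of 14, with a median of 0.15, where 37.1% of all such genes did. None of the 14 was lower by more than rounding in either genotype, where 38.3% of all such genes were in WT and 30.9% in Gpr75-/- mice. The median of all such genes was 0.0 in both genotypes. The cytosolic genes had medians of 0.23 in WT and 0.09 in Gpr75-/- mice. UPR signalling genes had 0.01 and 0.04, and ERAD genes 0.09 and 0.03.

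**Figure D3:**
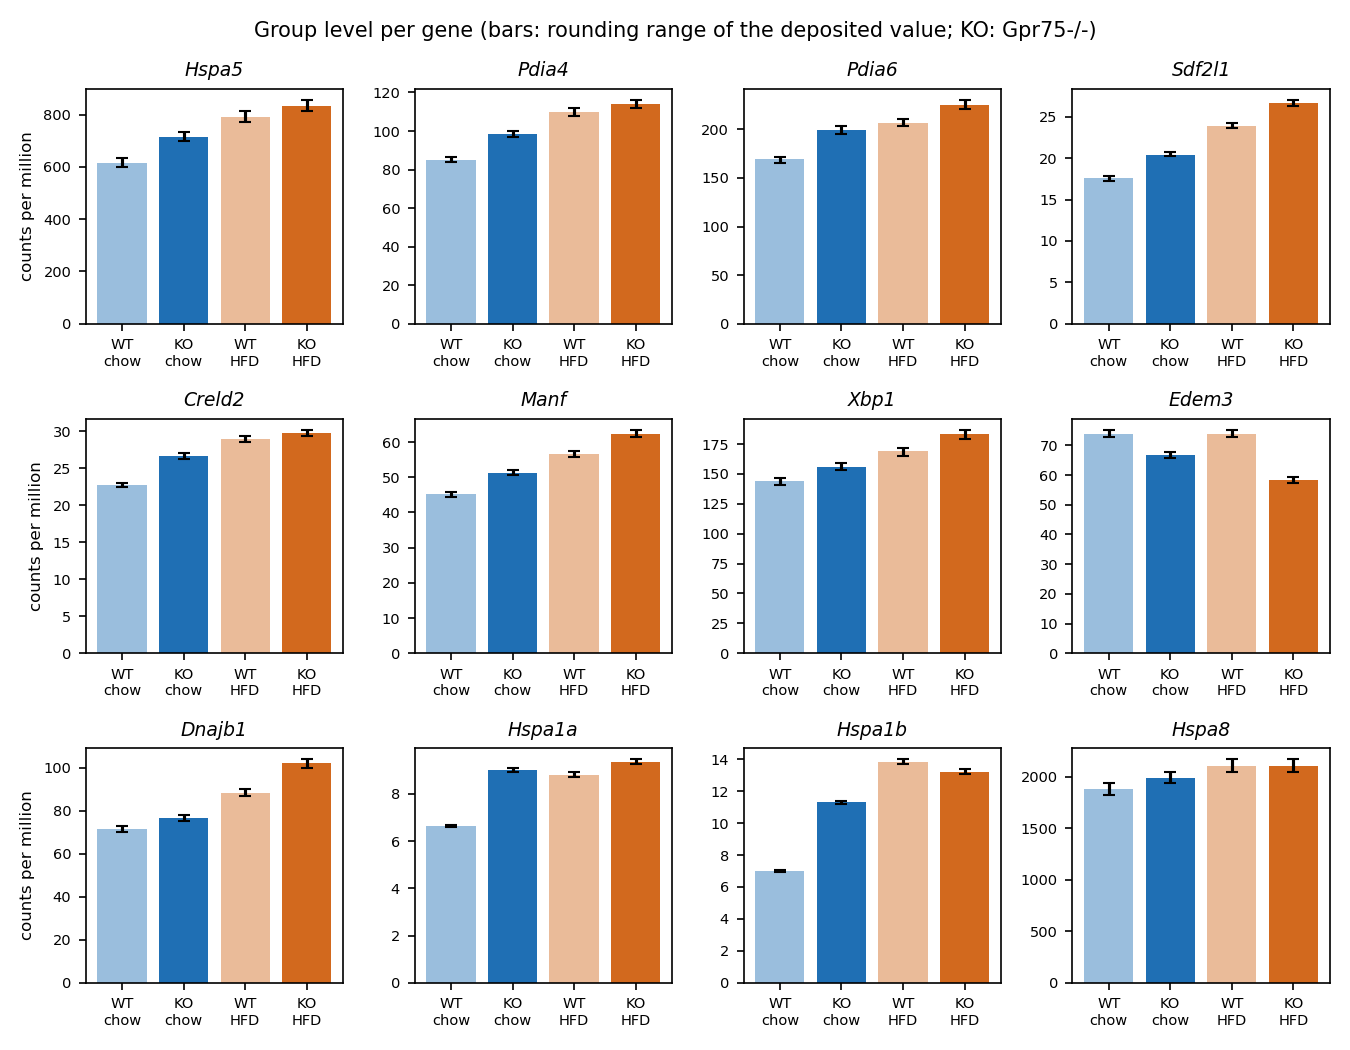
Group level on the CPM scale for 12 members in WT and Gpr75-/- (KO) mice on chow (blue) and on the HFD (orange). Error bars are the rounding range of the authors' value and not the spread between mice. For Hspa5, Pdia4 and Sdf2l1 the WT chow bar is the lowest, and for Edem3 the Gpr75-/- HFD bar is.

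Companion genes of the same systems are given by their counts. Of 40 other ER folding genes tested on chow, 28 were above 0 with a median of 0.09, and 4 were higher and 0 lower at an unadjusted p under 0.05, against 2.13% and 2.55% of all genes. The prolyl isomerase Fkbp14 was at 1.28-fold (z = 3.01, adjusted p = 0.561) and the thioredoxin-like Erp44 at 1.13-fold (z = 2.32). On the HFD, 23 of the 40 were above 0 with a median of 0.02. For the difference between the diets, 3 of the 40 were lower at an unadjusted p under 0.05 (Erp44, Ero1a and Ssr3, the latter pair named after their values were seen) and 0 higher, against 1.67% and 1.23% of all genes, and 0 passed the adjusted test. Clgn, calmegin, was at 0.799-fold on the HFD (z = -2.72, adjusted p = 0.573), and Sil1, an exchange factor of BiP, at 1.14-fold (z = 1.94).

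Among 25 other ERAD genes, 15 were above 0 on chow and 14 on the HFD, with medians of 0.01 on both and 0 genes under an unadjusted p of 0.05 on either diet. Those with the smallest p were Ube2j1 (1.08-fold) and Erlec1 (0.902-fold) on chow, and Os9 (1.06-fold) and Marchf6 (0.950-fold) on the HFD. Of other genes of the integrated stress response, 13 of 32 were above 0 on chow and 17 of 33 on the HFD. Ddit4, an inhibitor of mTORC1 that glucocorticoids also induce, was at 1.36-fold on chow (z = 3.36, adjusted p = 0.299), and Vldlr at 0.868-fold (z = -2.30). On the HFD, Sesn2 was at 1.14-fold (z = 1.61) and Vldlr at 0.930-fold (z = -1.48).

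Of 32 other cytosolic heat shock genes, 21 were above 0 on chow. At an unadjusted p under 0.05, 4 were higher and 0 lower, against 2.13% and 2.55% of all genes, with Hspa2 at 1.19-fold (z = 2.42) and Dnajb4 at 1.11-fold (z = 2.12). On the HFD 23 were above 0, and 1 was higher and 0 lower at that threshold, against 1.37% and 3.13% of all genes. That gene was Hspb6 at 1.27-fold (z = 2.08), followed by Dnajb4 at 1.07-fold (z = 1.82). Of 10 mitochondrial chaperone genes, 6 were above 0 on chow and 7 on the HFD, with medians of 0.03 and 0.01. Hscb (0.752-fold, z = -1.92) and Lonp1 (0.931-fold) had the smallest p on chow, and Trap1 (0.969-fold) and Clpp (1.03-fold) on the HFD. No gene of these companion lists passed the adjusted test on either diet.

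Some markers of other cells and states rose or fell with genotype in the same libraries. On chow, 12 of 12 choroid plexus genes were above 0, 8 of them without a test, with a median log2 fold change of 2.60 over the 12 and 0.52 over the 4 tested. Of those 4, 0 passed the adjusted test. On the CPM scale the summed level of the 12 genes was 89.4 in WT and 128 in Gpr75-/- mice, a smaller ratio than the median over the 12. The group values of the CPM scale and the mean counts do not match for these genes. Of these genes, Kcnj13, Aqp1, Slc4a5 and Kcne2 were at the floor in WT mice. The mean normalized count of Ttr was 2910 on chow and 48.5 on the HFD, where 3 of the 6 choroid plexus genes present were above 0, the sums were 79.2 and 83.7 CPM, and Ttr fell to 0.356-fold (adjusted p = 0.00692). On chow Ttr had no test, although its mean was far above the lowest tested (25.1), for a reason not given in the sources used here. With no value of a single mouse, how many mice carried the chow offset of these genes cannot be read. The choroid plexus is a secretory epithelium rich in ER, and its part in the chaperone values on chow was not tested. All 5 red blood cell genes were above 0 on chow (median 0.60, summed level 277 CPM in WT and 443 CPM in Gpr75-/- mice) and all 5 below 0 on the HFD (314 and 280 CPM). On chow Hbb-bs (1.72-fold) and Hbb-bt (1.65-fold) rose.

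Glucocorticoid-responsive genes were above 0 in 14 of 15 cases on chow (median 0.38, 877 and 1104 CPM) and in 10 of 15 on the HFD (median 0.06, 1168 and 1253 CPM), and Tsc22d3 rose by 0.56 on the log2 scale on chow (adjusted p = 8.57e-11). All 18 oligodendrocyte genes were below 0 on chow (median -0.16, 8417 and 7624 CPM) and on the HFD (median -0.24, 9155 and 8016 CPM), and 1 and 7 of them fell, where 0.0618% and 0.199% of all genes passed the test in either direction. The neuropeptide genes had a median of 0.01 on chow (1065 and 1087 CPM) and 0.24 on the HFD (1057 and 1259 CPM), where 17 of 17 were above 0 and Pmch rose (1.29-fold). Immediate early genes had medians of -0.24 and -0.37, and Junb fell on the HFD (0.700-fold). Astrocyte, microglia and endothelium genes had medians of 0.04, -0.04 and -0.08 on chow and -0.02, -0.05 and -0.01 on the HFD. The part of these markers in the values of the members, Edem3 included, was not tested.

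**Figure D4:**
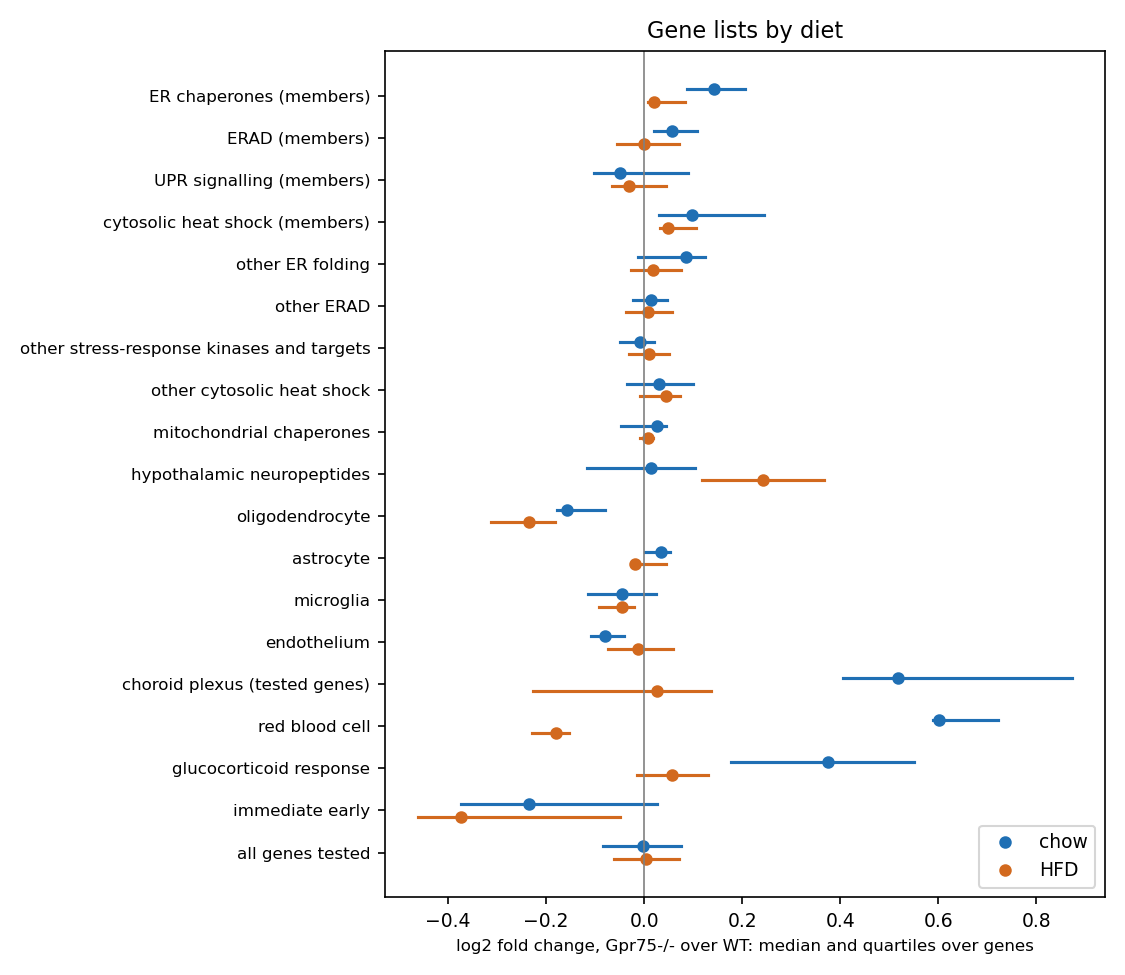
Median (points) and quartiles (lines) over genes of log2 fold changes between Gpr75-/- and WT mice on chow (blue) and on the HFD (orange), for the 4 classes of members, companion lists, marker lists and all genes tested. On chow the ER chaperones (0.14) stand with smaller offsets than the red blood cell (0.60), choroid plexus (0.52 over 4 tested genes) and glucocorticoid (0.38) lists, and on the HFD all 4 classes lie within 0.05 of 0.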

How the data were processed

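Hypothalamus RNA-Seq of 12 mice was grouped by the labels. The authors prepared mRNA libraries with a SMART-Seq kit, ran the Astrocyte workflow and tested raw counts with DESeq2 on each diet. The submitters' processing notes also name STAR, featureCounts, StringTie and GRCm39, with versions not given in the sources used here.

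The signal deposited per gene is an average over the 6 mice of a diet, after division of counts by size factors. Fold changes and SEs, both on the log2 scale, were taken as the authors deposited them, without shrinkage. The authors' own Wald statistics and p-values were not used. Their adjusted p-value served only to mark, by a blank, the genes left without a test. The group columns deposited by the authors, on a log2 scale, behaved as log2(log2(CPM) + 1), inferred from the values: undone, they summed to 992446 and 993590 CPM. The kind of mean over mice behind them was not given in the sources used here.

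Count tests and fits with single mice had been planned and could not be made, since each gene has 1 value per group. The Wald statistic, its 2-sided normal p and the Benjamini-Hochberg adjustment were recomputed over 16191 and 16089 genes. The difference between diets was divided by the root of the summed squared SEs, over 15893 genes. Group counts were derived from the mean and the fold. A depth of 18280462 (chow) and 19420111 (HFD) normalized counts per average mouse leaves the spread between mice as the main error. The steps were tested on simulated data.

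By the rule, folds with intervals are given for the 6 members with the smallest p on each diet, the 4 for the difference (as log2 differences), and 11 fixed genes, among them Hspa5, Xbp1 and Hsf1. Of each companion stress list the 2 with the smallest p per diet are named. Other members have their folds, some of them with intervals, a choice made after their values were seen. The members and lists were chosen with earlier results of these data known. Exon lengths came from the GENCODE annotation of GRCm38, matched by Ensembl identifier, and promoters from RefSeq. Python 3.11.15, numpy 2.4.6, pandas 2.3.3, scipy 1.17.1 and matplotlib 3.10.9 were used. Alternatives were no filter, protein-coding genes, a minimum mean of 100, Bonferroni adjustment, statistics divided by their robust spread, log2 ratios of the group CPM, members without the signalling genes or without Hspa1a and Hspa1b, and another centring.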

Additional observations from a re-analysis of the deposited data

How the results depend on the processing

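No paired analysis was possible because the results hold no value of a single mouse, and leaving out each replicate was not run for the same reason. Of 78 results and settings, 72 kept their direction and side of the threshold or stayed within 1.5 times the count. Part of these could not have changed. The choice of genes tested and the Bonferroni adjustment alter only adjusted p-values, and leave fold changes and unadjusted p-values of members as they were. Every member passed the minimum mean, so the medians under that setting were the same by construction. The tally of 72 thus does not measure how robust the results are. The count of members called on the HFD, 1 as reported, was 0 with a Bonferroni adjustment and 2 with statistics divided by their robust spread (0.866), which added Dnajb1 (adjusted p = 0.0359). ER members higher on the HFD at an unadjusted p under 0.05 numbered 2 as reported, 4 with the robust spread and 1 with fold changes centred on the median of all genes. These counts of unadjusted calls, and the centring of counts, were alternatives chosen after seeing the data. On the HFD, log2 ratios of the group CPM gave medians of 0.0204 for ER and 0.0237 for cytosolic members, against 0.0112 and 0.0496 as reported. Fold changes centred on the median of all genes gave 0.0067 and 0.0451. No alternative run made a call on chow or for the difference between the diets. The widest intervals were those of Hspa1b, Edem3, Hspb1 and Hspa1a on chow and of Hspa1b, Hspb1 and Hspa1a on the HFD, with SEs 1.8 to 6.13 times the counting error, so depth was not the main limit.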
